A study of Homo sapiens with 4 samples.

Results

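Myosins are the motor proteins that walk on or pull actin filaments, and the genes of their heavy chains were examined in MDA-MB-231 and in the lung-metastatic cell line LM2-4175. The members were chosen by name, as the rows of the deposited table whose symbol is MYH or MYO followed by a number and the usual letter. This gave 40 of 57815 genes, with 15 conventional myosins (MYH) and 25 unconventional myosins (MYO). MDA-MB-231 is an established triple-negative breast cancer cell line. LM2-4175 was derived from it and spreads to the lung more aggressively, so both groups share 1 origin and each stands for 1 cell line. Both lines were grown untreated in DMEM with serum. Total RNA was sequenced in 2 libraries per cell line, 4 in all, and the question was which genes differ with the metastatic behaviour.

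The authors combined the libraries of a cell line in 1 FPKM (sequenced fragments per kilobase of a transcript, relative to all mapped fragments) with a lower and an upper bound. No value per library, no SD and no test between replicates can therefore be given, and no difference below has a replicate check. What spread the bounds include, and whether strand was used in counting, is not given in the sources used here. Over all genes, FPKM added up to 632944 for MDA-MB-231 and 598147 for LM2-4175. The number of fragments behind a gene is unknown. Because FPKM is per length, levels can be compared between genes. Of the markers of the line, VIM had 1355 and 1768 FPKM in MDA-MB-231 and LM2-4175, while the oestrogen receptor gene ESR1 stayed at 0.0331 and 0.0186 FPKM and the progesterone receptor gene PGR at 0.0124 and 0.00438 FPKM. CD44 had 470 and 355 FPKM and CDH1 0.851 and 0.366 FPKM. ERBB2, chosen as a marker that is absent or low in such a line, was expressed at 35.0 and 22.8 FPKM. All 4 epithelial markers examined, EPCAM, KRT8, KRT18 and KRT19, were lower in LM2-4175, with a summed level of 1337 against 403 FPKM. Their part in the myosin values was not tested. Of 6 blood cell markers, 2 were listed at 0, among them CD3E, and PTPRC and HBB stayed under 0.5 FPKM in both lines, while CD14 had 1.17 and 1.75 FPKM and CD68 107 and 179 FPKM, with wide bounds (the list summed to 108 and 181 FPKM). In such bulk RNA, fewer expressing cells and less RNA per cell cannot be told apart.

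A myosin heavy chain carries a motor head that binds actin and hydrolyses ATP, a neck that binds light chains or calmodulin, and a tail. In conventional myosin, or myosin II, the tail is a coiled coil that builds bipolar filaments, which contract muscle sarcomeres and, in other cells, stress fibres and the cytokinetic ring. The tails of unconventional myosins bind membranes, organelles or other cargo, and these motors shape filopodia, tether vesicles and move organelles. In breast cancer cells, myosins are studied above all for migration and invasion.

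Of the 40 members, 21 had a mean of at least 0.5 FPKM over the cell lines and were compared, 5 MYH and 16 MYO genes. Another 12 were detected below that mean, between 0 and 0.216 FPKM in MDA-MB-231 and between 0 and 0.475 FPKM in LM2-4175. The remaining 7 were listed at 0 in both lines. A gene was called higher or lower where FPKM + 1 changed by at least 1.5-fold and the authors' bounds did not overlap. By this rule MYO1D was up-regulated and MYH10 was down-regulated in LM2-4175, and no other member was called. This is 9.52% of the members compared, against 9.27% of all 13911 genes compared (4.67% higher and 4.61% lower), a share close to that of all genes.

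The sequences around the start sites of both called genes are shown with those of MYH9, the member with the highest level, and MYH4, a skeletal muscle member listed at 0, because the promoters of members that were expressed and of those listed at 0 differ in make-up. Each runs from 250 bases before to 50 after the start. The sequences are from RefSeq (table on GRCh38.p14) and each matched GRCh37 at 1 place, on the minus strand: chr17:31204093-31204392 for MYO1D, chr17:8533994-8534293 for MYH10, chr22:36783963-36784262 for MYH9 and chr17:10372827-10373126 for MYH4. The MYH10 stretch lies wholly inside the gene as placed by GENCODE (8377525 to 8534694), whose start is farther upstream. Capitals mark GC boxes (GGGCGG) and TATA boxes (TATAAA), searched on both strands.
MYO1D: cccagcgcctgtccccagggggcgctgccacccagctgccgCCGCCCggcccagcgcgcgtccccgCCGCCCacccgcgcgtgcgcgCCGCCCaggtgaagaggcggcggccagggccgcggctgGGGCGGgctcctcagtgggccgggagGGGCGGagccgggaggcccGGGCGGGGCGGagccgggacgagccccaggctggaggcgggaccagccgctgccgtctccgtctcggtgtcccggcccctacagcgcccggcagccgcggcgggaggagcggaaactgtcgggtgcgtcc
MYH10: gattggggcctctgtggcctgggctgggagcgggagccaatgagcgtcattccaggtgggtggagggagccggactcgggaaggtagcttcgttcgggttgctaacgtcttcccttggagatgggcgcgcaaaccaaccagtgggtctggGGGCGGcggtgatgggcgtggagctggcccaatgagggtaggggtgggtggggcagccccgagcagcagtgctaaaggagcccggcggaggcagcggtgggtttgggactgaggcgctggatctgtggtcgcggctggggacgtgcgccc
MYH9: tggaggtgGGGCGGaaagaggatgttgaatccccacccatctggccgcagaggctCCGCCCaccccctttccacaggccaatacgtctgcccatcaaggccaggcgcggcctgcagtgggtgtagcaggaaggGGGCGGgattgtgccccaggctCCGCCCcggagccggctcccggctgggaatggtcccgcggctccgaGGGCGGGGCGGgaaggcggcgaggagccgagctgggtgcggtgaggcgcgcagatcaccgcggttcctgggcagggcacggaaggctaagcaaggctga
MYH4: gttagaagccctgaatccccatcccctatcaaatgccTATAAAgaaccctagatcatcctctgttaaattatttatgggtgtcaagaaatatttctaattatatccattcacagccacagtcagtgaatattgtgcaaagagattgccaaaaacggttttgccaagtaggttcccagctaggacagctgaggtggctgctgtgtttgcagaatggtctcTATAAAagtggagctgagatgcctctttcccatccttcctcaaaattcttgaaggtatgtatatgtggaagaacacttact

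The MYO1D promoter had 82.0% G+C, 43 CpG dinucleotides and 7 GC boxes, boxes that share a base counted apart. The MYH10 promoter had 67.7% G+C, 21 CpG and 1 GC box, and the MYH9 promoter 70.3% G+C, 25 CpG and 6 GC boxes. None of these held a TATA box. The MYH4 promoter was of the opposite kind, with 41.0% G+C, 1 CpG, no GC box and 2 TATA boxes, the nearer starting 31 bases before the start site. Members of the family differed in the same features, with exceptions. Entries were found for 32 members, some with several start sites. Of 24 promoters of members that were compared, 19 (79.2%) held a GC box and 2 (8.33%) a TATA box, with a median of 30 CpG. Of 6 promoters of members listed at 0, none held a GC box and all 6 held a TATA box, with 1 to 4 CpG. All of these but MYH6 lie in 1 cluster of muscle genes on chromosome 17 of GRCh37, from 10204182 to 10453017. MYH15 went the other way, since it was compared and its promoter had 2 CpG, a TATA box and no GC box. MYH14 and MYO3A, both near 0 FPKM, had promoters with 32 and 31 CpG and a GC box. Promoters of the members between these groups had a median of 9 CpG, and 3 of 9 held a GC box. Among all 35116 promoters of the table, 44.95% held a GC box and 11.5% a TATA box, with a median of 14 CpG. These matches describe letters and not binding. MYH3, MYH7, MYH7B, MYH11, MYH16, MYO7A and MYO18B had no entry.

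MYH9 was the leading myosin gene of both cell lines. It encodes the heavy chain of non-muscle myosin IIA, the main contractile motor of most migrating cells. Its level was 286 FPKM (authors' bounds 209 to 363) in MDA-MB-231, against 242 FPKM (177 to 306) in LM2-4175, which ranked it 293 and 301 among all genes. The bounds overlap widely and allow a ratio of LM2-4175 to MDA-MB-231 between 0.489 and 1.46. MYH9 alone held 40.6% of the summed FPKM of all 40 members in MDA-MB-231 and 39.9% in LM2-4175. Second was MYO1C, a class I myosin that links membranes to actin, with 137 FPKM (86.5 to 188) and 110 FPKM (70.8 to 149). The 5 highest members together held 78.8% and 79.0% of the sum, which was 704 FPKM in MDA-MB-231 and 606 FPKM in LM2-4175.

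Below these genes the order was close. MYH9, MYO1C and MYO19 were the 3 highest in both lines, and the 5 highest also held MYO18A in MDA-MB-231 and MYO10 in LM2-4175. Of the 20 neighbouring pairs in the order of the 21 members compared, the bounds were apart for only 2 pairs in each line. In MDA-MB-231 these were MYH9 above MYO1C and MYO1C above MYO19. In LM2-4175 MYH9 above MYO1C was 1 of them, while the bounds of MYO1C and MYO19 overlap. MYO1D moved from place 20 to place 7 of the 40 members, and MYH10 from place 7 to place 12.

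**Figure D1:**
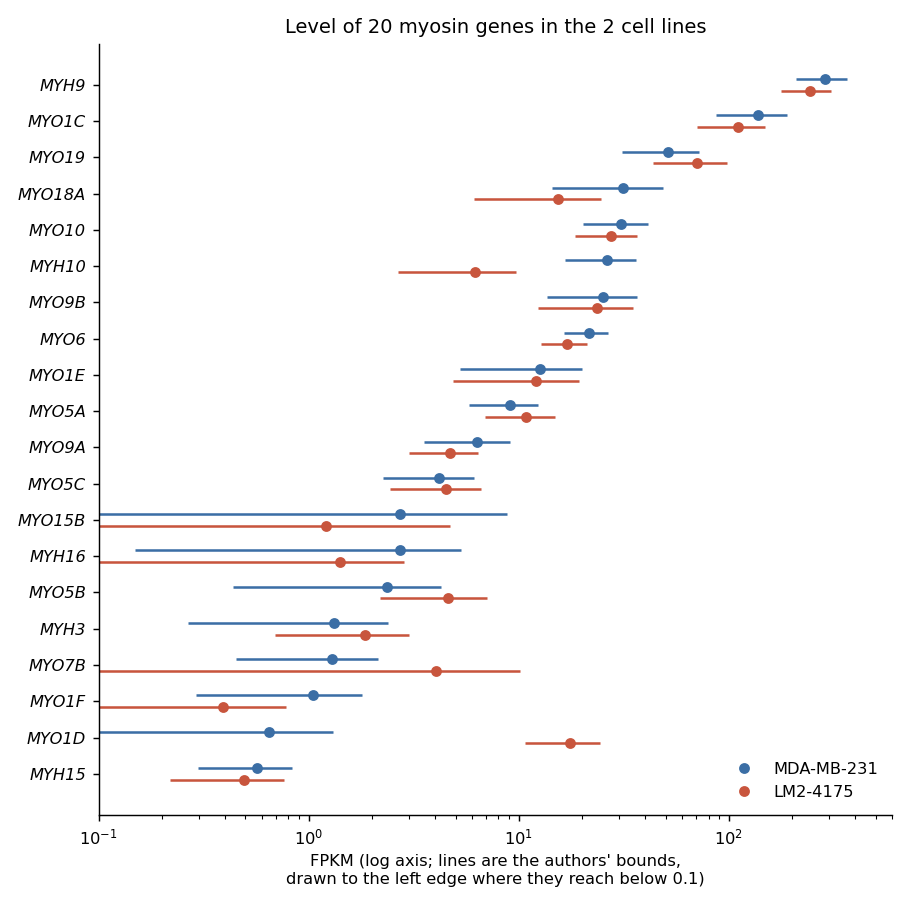
FPKM of 20 of the 21 members compared (log axis), in the order of MDA-MB-231, with a blue point for MDA-MB-231 and a red point for LM2-4175 and lines for the authors' bounds. The lines of the cell lines are apart only for MYH10, which went from 26.3 to 6.19 FPKM, and MYO1D, which went from 0.645 to 17.5 FPKM.

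MYH10 encodes the heavy chain of non-muscle myosin IIB, which builds slower, longer-lived actin bundles than IIA, and was the 1 member called lower. The gene lies on chromosome 17 of GRCh37 from 8377525 to 8534694, minus strand (ENSG00000133026). It had 26.3 FPKM (16.6 to 36.0) in MDA-MB-231, compared with 6.19 FPKM (2.66 to 9.73) in LM2-4175. The level was thus 4.25-fold lower, a change of -1.92 in log2(FPKM + 1), and the nearest bounds of 16.6 and 9.73 FPKM left a gap. Exons of other genes overlap 1.11% of its exon bases. MYH14, the heavy chain of non-muscle myosin IIC, was near 0 in both lines, at 0.112 and 0.0827 FPKM. Of the summed 312 FPKM in MDA-MB-231, MYH10 held 8.42% and MYH9 91.5%, and of 248 FPKM in LM2-4175 they held 2.50% and 97.5%. Put as a ratio of levels, MYH9 exceeded MYH10 by 10.9 in MDA-MB-231 and by 39.0 in LM2-4175.

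MYO1D was called higher, with the largest change of the 40 members in log2(FPKM + 1). It encodes a short, single-headed class I myosin that binds membranes, and its fly counterpart sets left-right asymmetry of organs. The gene lies on chromosome 17 of GRCh37 from 30819540 to 31204195, minus strand (ENSG00000176658), and 1.42% of its exon bases overlap a gene on the opposite strand. MYO1D had 0.645 FPKM (0 to 1.30) in MDA-MB-231, against 17.5 FPKM (10.7 to 24.3) in LM2-4175. The log2 change was 3.49 and the ratio 27.1. As the MDA-MB-231 value has a lower bound of 0, the ratio has no upper limit, and the nearest bounds give a ratio of 8.21.

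No other class I gene was called. MYO1E, known from podocytes and endocytosis, was almost level at 12.6 and 12.1 FPKM, with bounds that allow ratios from 0.242 to 3.69. MYO1F, best known from leukocytes, had 1.04 FPKM (0.289 to 1.80) and 0.391 FPKM (0 to 0.782). The other class I genes MYO1A, MYO1G and MYO1H stayed under 0.15 FPKM in both lines. MYO1D made up 0.322% of the summed class I FPKM in MDA-MB-231 and 10.4% in LM2-4175, while MYO1C went from 68.6% to 65.2%. The class I sum was 200.3 FPKM in MDA-MB-231 and 169 FPKM in LM2-4175.

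**Figure D2:**
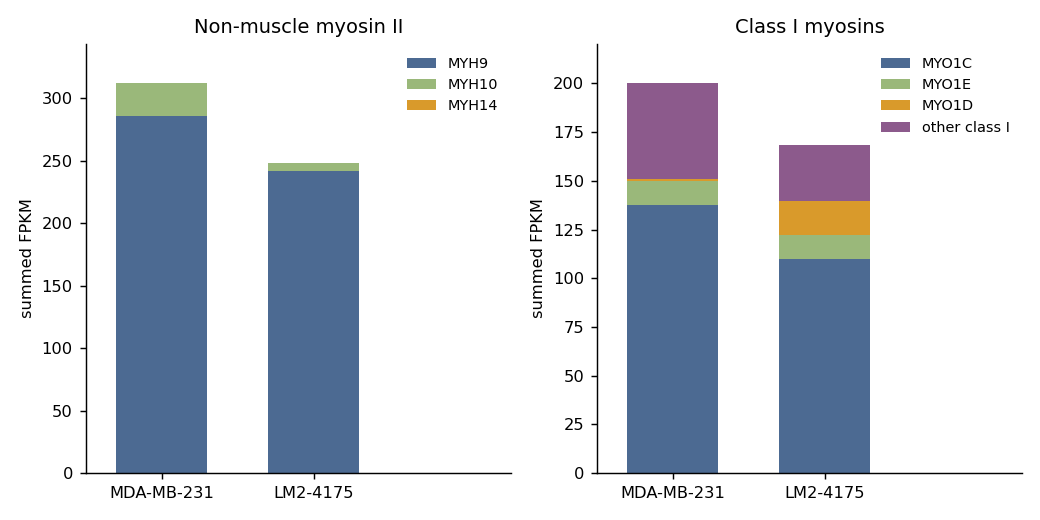
Summed FPKM (bars from 0) of the non-muscle myosin II genes (left) and the class I genes (right) in each cell line, stacked by gene, with the remaining class I genes drawn as 1 part. The MYH10 part shrinks from 8.42% to 2.50% of its bar, and the MYO1D part grows from 0.322% to 10.4%. The bars carry no error, as each cell line has 1 value per gene.

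Myosins of class V carry vesicles along actin, and all 3 genes had higher values in LM2-4175 without a call. MYO5B, the motor of recycling endosomes, had 2.35 FPKM (0.434 to 4.26) and 4.61 FPKM (2.19 to 7.03), past 1.5-fold but with overlapping bounds. MYO5A, which moves melanosomes and other vesicles, had 9.05 and 10.9 FPKM, and MYO5C, known from secretory epithelia, 4.19 and 4.50 FPKM. MYO6 moves towards the opposite end of the filament from other myosins and serves endocytosis. It had 21.5 FPKM (16.3 to 26.7) in MDA-MB-231, compared with 16.9 FPKM (12.7 to 21.01) in LM2-4175, and these bounds, among the narrowest of the family, allow a ratio between 0.477 and 1.29.

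MYO7B, a motor of the brush border of gut and kidney cells, had 1.29 FPKM (0.451 to 2.13) in MDA-MB-231, against 4.05 FPKM in LM2-4175. The LM2-4175 value spans 0 to 10.1 FPKM, so the direction is not resolved, although the point values differ by a log2 change of 1.14. MYO10, the motor of filopodia tips, had 30.6 FPKM (20.2 to 41.1) and 27.5 FPKM (18.5 to 36.4). Of the class IX myosins, which also carry a signalling domain in their tails, MYO9B had 25.1 and 23.6 FPKM, and MYO9A 6.33 and 4.69 FPKM, and neither reached 1.5-fold.

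MYO19 is anchored on mitochondria and was the third highest member in both lines. Its level was 51.3 FPKM (30.9 to 71.7) in MDA-MB-231, against 70.8 FPKM (43.5 to 98.1) in LM2-4175. MYO18A, a Golgi-linked myosin thought to lack motor activity, had 31.4 FPKM (14.4 to 48.3) in MDA-MB-231, compared with 15.4 FPKM (6.15 to 24.7) in LM2-4175. With a log2 change of -0.98 it came next to MYH10 among the decreases, but its bounds overlap. MYO15B had 2.73 and 1.21 FPKM with a lower bound of 0 in both lines. The upper bound of MYO15B lay 223% and 289% above its FPKM, so its values are loose.

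The sarcomeric and smooth muscle heavy chains were at or near 0. Together these 12 genes summed to 4.72 FPKM in MDA-MB-231 and 3.79 FPKM in LM2-4175. MYH1, MYH2, MYH4, MYH6, MYH7, MYH8 and MYH13, the chains of adult and perinatal skeletal muscle, heart and eye muscle, were listed at 0 in both lines. MYH3, the embryonic skeletal chain, was the exception among the skeletal genes, with 1.32 FPKM (0.266 to 2.37) and 1.85 FPKM (0.690 to 3.01). MYH16, a jaw muscle gene that is a pseudogene in humans, had 2.72 FPKM (0.148 to 5.28) and 1.41 FPKM (0 to 2.85), and other genes overlap 12.8% of its exon bases. MYH15 had 0.566 and 0.492 FPKM. MYH11, the smooth muscle chain, and MYH7B had 0.0422 and 0.0799 FPKM in MDA-MB-231, against 0.0116 and 0.0259 FPKM in LM2-4175. Of 13 muscle markers, MYOD1, MYOG and TNNT3 were at 0 in both lines, and SMTN held 36.6 of a summed 40.3 FPKM in MDA-MB-231 and 54.6 of 58.2 FPKM in LM2-4175.

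The other members with low values are mostly motors of hair cells, brush borders and brain. MYO7A and MYO15A, both known from inherited deafness, had 0.214 and 0.216 FPKM in MDA-MB-231 and 0.475 and 0.295 FPKM in LM2-4175. MYO16 had 0.123 and 0.280 FPKM. MYO3A, MYO3B and MYO18B stayed under 0.01 FPKM. None of these was compared, and for each the bounds of the cell lines overlap.

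Over the 21 members compared, 7 had higher and 14 (66.7%) lower values in LM2-4175, where 54.5% of all 13911 genes were lower. The median change of the members in log2(FPKM + 1) was -0.15, beside -0.04 for all genes. A change of at least 1.5-fold in FPKM + 1, whatever the bounds, was found for 8 members, 3 higher and 5 lower (38.1%), while 22.1% of all genes passed this mark (10.3% higher and 11.8% lower). For 6 of these 8 the bounds overlap: MYO7B and MYO5B had higher values, and 4 members, MYO18A, MYO15B and MYH16 among them, had lower values. The bounds of the members were also somewhat wide, with a median distance from FPKM to upper bound of 46.1% and 47.7% in MDA-MB-231 and LM2-4175, against 38.6% and 38.1% for all genes. The other 13 members differed by less than 1.5-fold in FPKM + 1 (MYO1F, at a low level, by 2.67-fold in FPKM itself), 4 with higher and 9 with lower values.

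**Figure D3:**
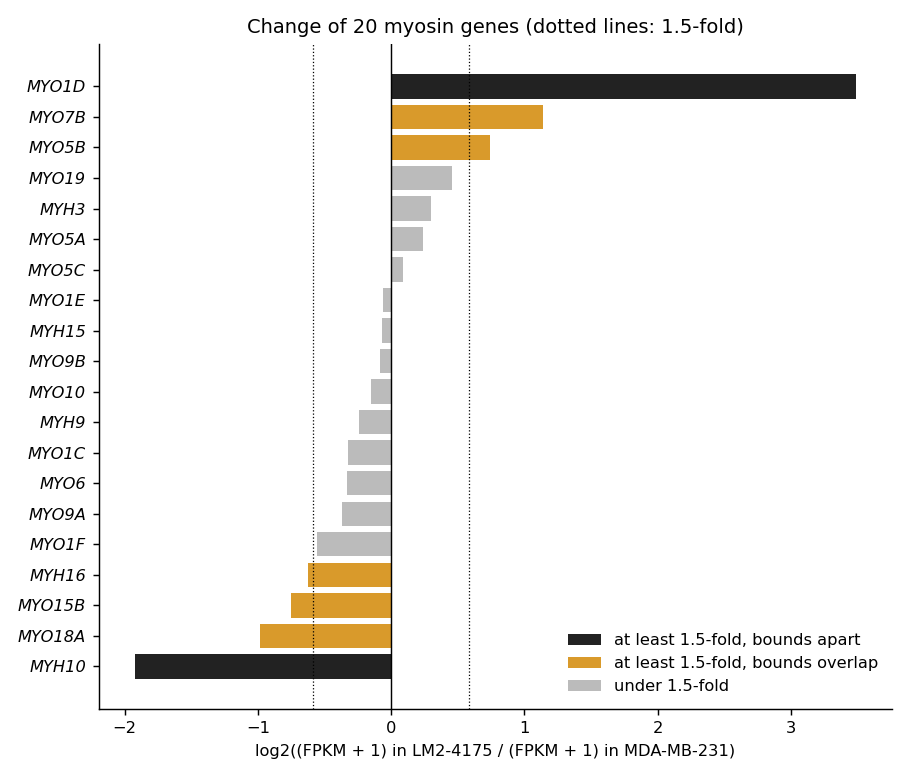
Change of 20 of the 21 members compared as log2 of the ratio of FPKM + 1, with values above 0 higher in LM2-4175 and dotted lines at 1.5-fold. MYO1D at 3.49 and MYH10 at -1.92 (dark bars) stand beyond the others, the 5 orange bars passed 1.5-fold with overlapping bounds, and the grey bars stayed below it.

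Both called members lie on chromosome 17, which holds 13 of the 40 members and 7 of the 21 compared. On this chromosome 7.18% of 849 genes were called, with a median log2 change of -0.05. Within 1 Mb of the start of MYO1D, 9 other protein-coding genes were compared. TMEM98, which encodes a membrane protein and starts 50.7 kb away on the opposite strand, was also called higher, from 0.451 FPKM (0 to 0.926) in MDA-MB-231 to 6.46 FPKM (4.08 to 8.84) in LM2-4175. The other 8 were all lower without a call, and the median of the 9 was -0.43. Around MYH10, 25 genes were compared, 12 higher and 13 lower with a median of -0.00171 and no call. Thus no gene compared around MYH10 was called, and around MYO1D only TMEM98 was, where 9.27% of all genes compared were called. Whether neighbours share these changes more often than other genes was not tested. The starts of the genes compared around MYH10 are also distant. The nearest, that of NDEL1, lies farther from the start of MYH10 than that of TMEM98 lies from the start of MYO1D. Only STX8 starts on the other side. NDEL1 itself is not distant, as its exons overlap those of MYH10, and its log2 change was -0.05 without a call.

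**Figure D4:**
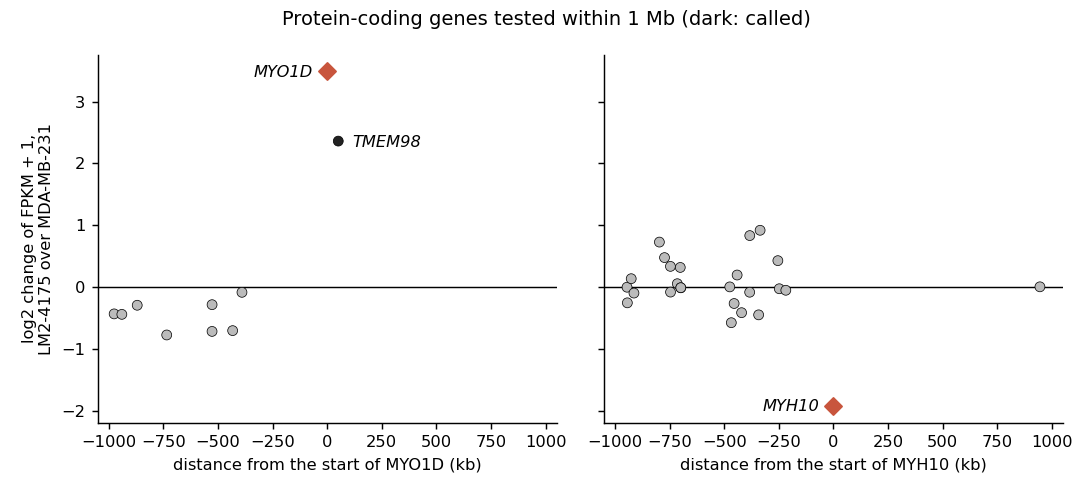
Log2 change of FPKM + 1 against the distance in kb from the start of MYO1D (left) and MYH10 (right), for protein-coding genes compared within 1 Mb. Red diamonds are the myosin genes and dark points are other called genes. TMEM98, 50.7 kb from MYO1D, is the 1 dark point.

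Genes that work with myosins were followed in 5 lists, chosen with earlier results of these data known. Of all 13911 genes compared, 54.5% had lower values, 9.27% were called and the median log2 change was -0.04. No list was tested against these values. Light chains hold the neck of the motor and, when the regulatory chains are phosphorylated, switch myosin II on. Of 16 light chain and calmodulin genes, 9 were compared, with 3 higher and 6 lower values and a median log2 change of -0.49. MYL12B, a regulatory light chain of non-muscle myosin II, was called lower, from 609 to 321 FPKM (log2 change -0.92). The other regulatory chains MYL9 and MYL12A had 196 and 413 FPKM in MDA-MB-231 and 99.8 and 261 FPKM in LM2-4175, both past 1.5-fold with overlapping bounds. MYL6, the essential light chain of non-muscle myosin, had 1566 and 1215 FPKM. In the other direction the largest difference was in MYL6B, with 51.9 FPKM (0 to 127) and 74.2 FPKM (0.617 to 148). These bounds are wide, so its direction is not resolved.

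Among 10 partners on the actin filament, 8 had lower values and the median was -0.54, beside 54.5% lower and -0.04 for all genes. S100A4, a calcium-binding protein that takes apart filaments of myosin IIA, was called lower, from 580 to 86.95 FPKM (log2 change -2.72). The scaffold genes ANLN and SEPT7 had 250.2 and 169.5 FPKM in MDA-MB-231, and 121 and 101 FPKM in LM2-4175, with overlapping bounds. Actin itself, as ACTB and ACTG1, had 3956 and 3375 FPKM in MDA-MB-231 and 2870 and 2201 FPKM in LM2-4175. TPM2 and TPM4 were the 2 with higher values, at 17.02 and 594 FPKM in MDA-MB-231 and 20.5 and 601 FPKM in LM2-4175.

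The switches of myosin II were closer to level. Of 20 genes for kinases, the myosin phosphatase and other regulators, 16 were compared, 5 higher and 11 lower, and none was called (median -0.19). The largest differences each way were, among lower values, RND3, with 60.8 and 42.3 FPKM, and PPP1R12C, with 47.5 and 34.9 FPKM, and, among higher values, DAPK3, with 39.5 and 54.1 FPKM, and RHOB, with 7.23 and 9.21 FPKM. ROCK1 had 18.1 and 14.2 FPKM and MYLK 31.6 and 23.4 FPKM. Of 15 adaptors that join unconventional myosins to cargo, 14 were compared, 7 each way with a median of -0.02 and no call. TAX1BP1, a MYO6 partner, had 99.3 and 67.5 FPKM, SPIRE2 4.24 and 2.67 FPKM, RAB27A, which recruits MYO5A, 24.1 and 33.8 FPKM, and DAB2, another MYO6 partner, 16.2 and 21.8 FPKM. The myosin chaperone gene UNC45A had 30.04 and 56.8 FPKM, past 1.5-fold with overlapping bounds, and its muscle relative UNC45B was at 0 and 0.000225 FPKM.

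**Figure D5:**
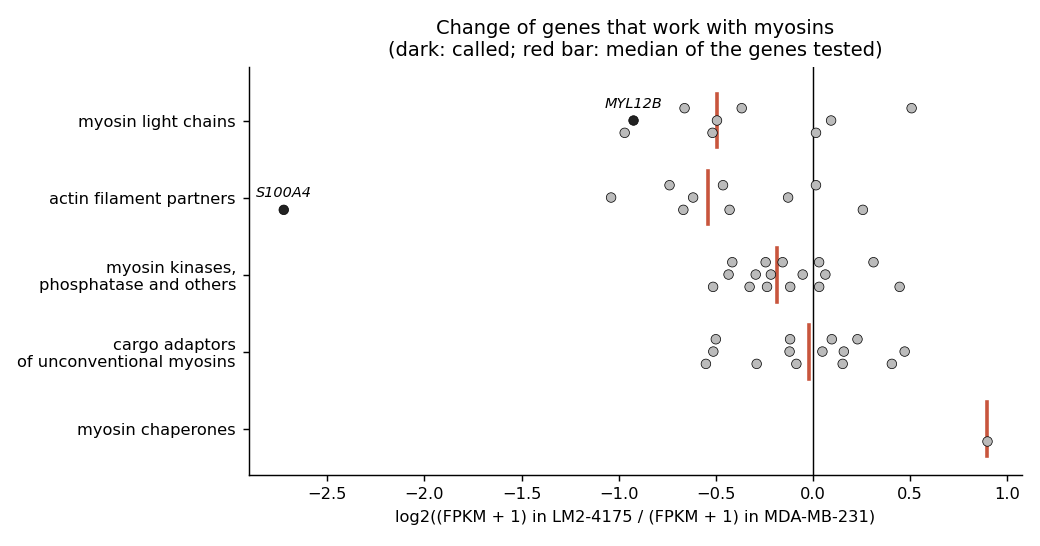
Log2 change of FPKM + 1 (values above 0 higher in LM2-4175) for the genes compared in each of 5 lists of myosin partners, with a red bar at the median of a list. MYL12B at -0.92 and S100A4 at -2.72, both dark, are the called genes.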

How the data were processed

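RNA-Seq of MDA-MB-231 and LM2-4175 (2 libraries each) was analysed from 1 deposited table. The authors prepared TruSeq libraries, sequenced paired reads of 150 bases, mapped them to hg19 with TopHat 2.0 and quantified GENCODE 19 genes with Cufflinks (the submitters' notes also name Cuffdiff). The deposited FPKM and its bounds combine the libraries of a cell line. FPKM is scaled to mapped fragments, so a value depends on the rest of the transcriptome.

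The change of a gene is log2(FPKM + 1) of LM2-4175 minus that of MDA-MB-231, which understates the change of low genes, for genes of status OK in both lines and a mean of at least 0.5 FPKM. Calls needed 1.5-fold and bounds apart, and they compare these pooled libraries only. The paper used another rule, the same fold with a Cuffdiff test, and reported more differing genes. A member not called here may pass that rule. Python 3.11.15, NumPy 2.4.6, pandas 2.3.3 and Matplotlib 3.10.9 were used. Positions were taken from GENCODE 44 on GRCh37, which held 39 of the 40 members (not MYO19). All members are named except 1 that is not reported here, and the same holds for some genes of the lists. Members and lists were chosen with earlier results of these data known. Of each partner list, every called gene and otherwise the 2 largest changes each way are given, and others were named after their values were seen. Alternatives varied the pseudocount, filter, fold, bounds and scaling. Protein sequences were not used here.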

Additional observations from a re-analysis of the deposited data

How the results depend on the processing

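MYO1D was called higher and MYH10 lower under all 8 alternatives tried: a pseudocount of 0.1 FPKM or none, no filter on low values, a mean of at least 1 FPKM, a 2-fold change, the fold alone, TPM scaling and scaling to the median ratio. All use the same pooled values. Dropping the filter or the bounds only loosens the rule, and the other settings are small beside these 2 changes. The agreement is therefore no independent check of the 2 calls. The fold alone, whatever the bounds, raised the members called to 3 higher and 5 lower, as fewer conditions are asked, and the calls over all genes to 1434 higher and 1640 lower, from 649 and 641. A change of at least 2-fold left 450 genes called higher and 403 called lower. TPM scaling turned the sign of 1 member, MYO1E, which was not called, and moved the share of calls over all genes that are higher from 50.3% to 57.3%. With TPM scaling the median change of the members went from -0.15 to -0.07, that of the kinase list from -0.19 to -0.11, that of the cargo adaptors from -0.02 to 0.06 and that of all genes from -0.04 to 0.03. No paired analysis was possible because the table gives 1 value per cell line, and for the same reason no library could be left out. The unknown number of fragments limits the low members most.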
